A study of Mus musculus with 8 samples.

Results

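Mouse myotubes that had received extracellular vesicles (EVs) of myogenic progenitor cells (MPCs) for 24 h were compared with control myotubes of the same time. Members of the comparison were the 10939 genes, of 35275 in the deposited table, whose level averaged 1 FPKM or more in the 4 libraries at 24 h. FPKM is fragments per kilobase of transcript and per mega of mapped fragments, a level that can be compared between genes. The genes on either side of that limit were Zxdb at 1.0003 FPKM and Fam98c at 0.99986 FPKM. Primary MPCs from C57BL6/J mice were differentiated in medium with horse serum until large myotubes had formed. One group then received EVs of proliferating primary MPCs, and the control group received EVs from growth media, so that both had been given a vesicle preparation, isolated with a polymer-based method. Untreated myotubes were not analysed here, and an effect of one preparation cannot be told apart from the opposite effect of the other. The study asked how MPC EVs act on gene expression in myotubes. Each group had 2 libraries at 24 h and 2 at 12 h, 8 in all. Nothing in the labels states that these came from separate cultures or animals, and the p-values therefore reflect a spread between libraries that may be technical.

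Myotubes form when myogenic progenitors leave the cell cycle and fuse. They then build sarcomeres, in which thick filaments of myosin slide along thin filaments of actin that are anchored at the Z disc. Transcripts of the embryonic and perinatal myosins are made early and those of adult fast isoforms later. EVs are membrane particles that carry protein, RNA and lipid between cells, and progenitor cells release them while they proliferate.

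The 8 libraries had an estimated 16.32 to 20.18 M fragments (M for mega), a depth read from the steps between low FPKM values, with the MPC EV libraries at 24 h at 16.32 and 17.98 and the controls at 19.71 and 20.18. Log2 values correlated at 0.996 between the control libraries at 24 h, at 0.992 between the MPC EV libraries and at 0.983 to 0.989 between the groups, across the tested genes, which are not independent replicates. Control 12 h replicate 2 stood apart from its partner (0.948). It enters the 24 h results only through the estimate of spread, which all 4 groups share. Transcripts encoded in mitochondria took 2.79% and 2.98% of the FPKM in the controls at 24 h and 2.09% and 2.65% with MPC EVs. Markers that define myotubes were abundant in all 4 libraries: the 11 tested markers summed to 13240 and 13550 FPKM in control and to 18370 and 16590 FPKM with MPC EVs. In bulk RNA, more cells of a type and more RNA per cell cannot be told apart.

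After 24 h, 285 genes were higher and 105 lower with MPC EVs (limma with Benjamini-Hochberg adjustment over the 10939 genes, adjusted p under 0.05), which is 2.61% and 0.96% of the genes tested and 3.57% together. Changes are differences of log2(FPKM + 0.5), a scale that understates the change of low genes. A gene under 1 FPKM in its lower group could reach the limit for testing through the other group alone. Among others, Gzmd, Nptx1, Nefm and Il11 did so through the MPC EV libraries, and Mmp9, Lgr6, Ccn5, Ltbp2 and Col12a1 through the controls. Sarcomere genes and a granzyme locus were among the largest rises, and 8 genes that the ERK kinase pathway induces rose by 0.80 to 1.37. The falls included the gelatinase Mmp9, the mesenchymal gene Islr, 4 collagens and the fusion gene Mymx. In all 390 called genes both libraries of one group lay above both of the other, a separation that 53.9% of the tested genes showed. The median change of the called genes was 0.77 for the rises and -0.70 for the falls, against -0.03 for all tested genes. A change over 1 was seen in 76 rises and 28 falls. The genes that rose took 2.19% of the total FPKM in control and 3.78% with MPC EVs, and those that fell 0.859% and 0.567%. Protein-coding genes made up 280 of the rises and 103 of the falls.

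How many genes passed depended on the libraries from which the spread was estimated. A fit of only the 4 libraries at 24 h called 489 genes higher and 269 lower, and 278 and 103 of the genes above were among them. Leaving out control 12 h replicate 2 gave 577 and 321, and leaving out control 12 h replicate 1 gave 592 and 344. All 285 and 105 genes were among the calls without replicate 2. With the replicate number as a block within each time, 0 genes passed as higher and 0 as lower. With either MPC EV library at 12 h left out, 136 and 50 genes passed. Leaving out a library at 24 h leaves that group with 1 sample, which is assumed to vary like the other groups. The counts were then 23 and 4 without control replicate 1, 36 and 7 without control replicate 2, 33 and 10 without MPC EV replicate 1 and 62 and 16 without MPC EV replicate 2. Of the 116 called genes that the rule for named genes picked, 17 passed with each of the 8 libraries left out in turn: Actn2, Lmcd1, Ankrd2, Tcap, Myh3, Myh7, Ablim3, Gzmd, Mcpt8, Nptx1, Tspan13, Nr4a1 and Dusp6 among the rises, and Mmp9, Islr, Tmem176b and Mymx among the falls. The other 99 lost the call with at least 1 of the libraries left out. In 19 other settings, wherever the gene was tested, none of the 116 changed direction. Outside median-ratio scaling and quantile normalization none could have, because their groups did not overlap at 24 h. The kept direction is therefore no measure of how stable a call is.

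**Figure D1:**
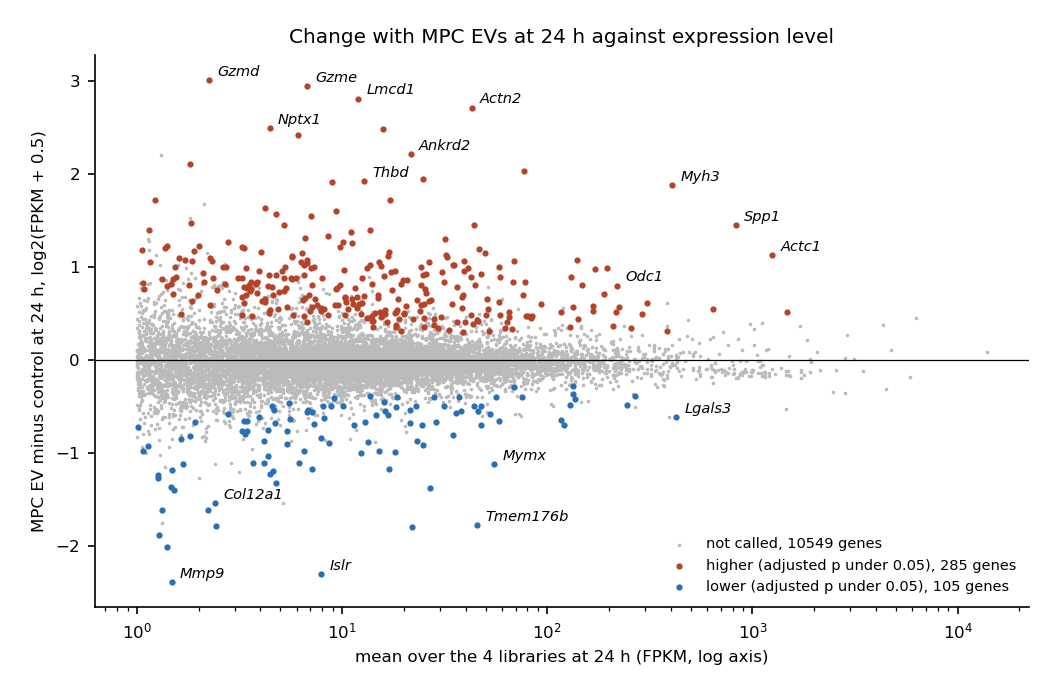
Each point is 1 of the 10939 tested genes, with its mean level over the 4 libraries at 24 h in FPKM on a log axis and its change with MPC EVs on the log2(FPKM + 0.5) scale. The 285 genes called higher (red) and 105 called lower (blue) lie on both sides of 0 over most of the range of levels, and uncalled genes (grey) spread most at low levels.

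**Figure D2:**
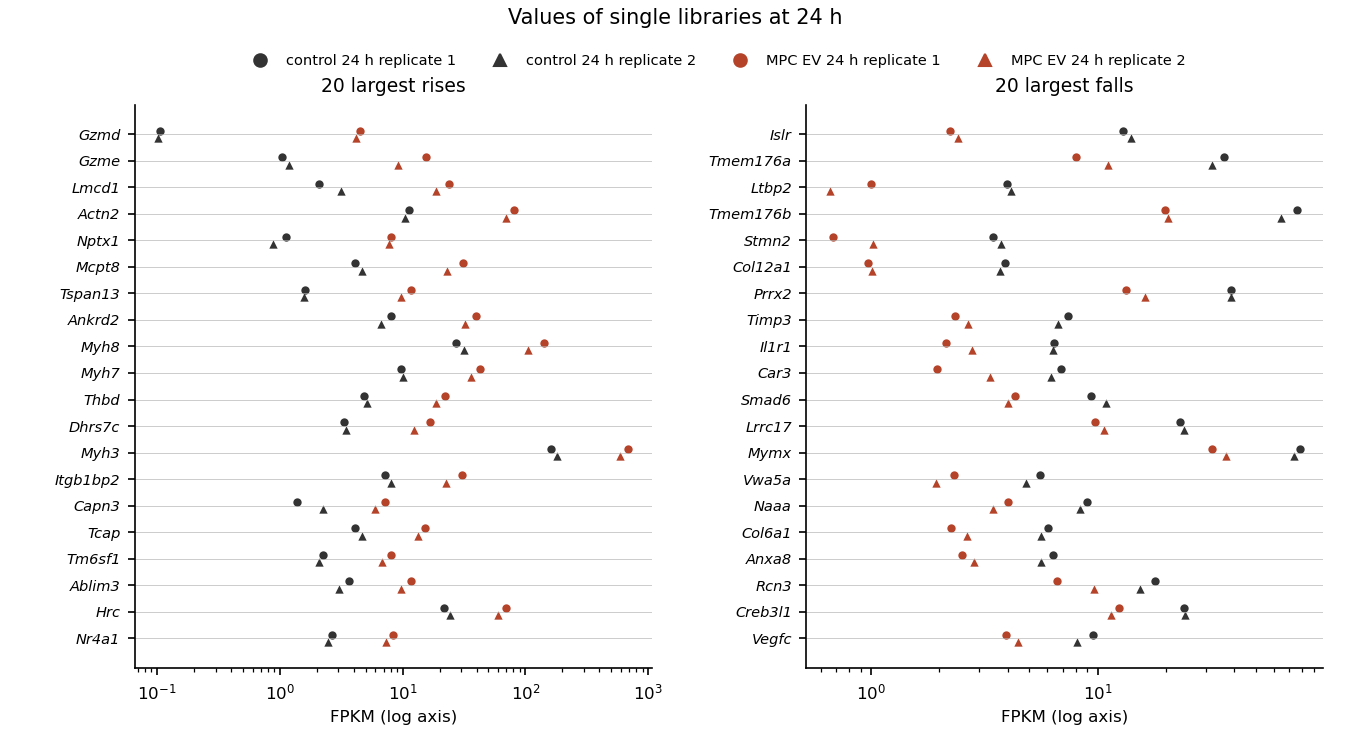
FPKM on a log axis in each of the 4 libraries at 24 h for the 20 largest rises and 20 largest falls with a mean of at least 2 FPKM, with control in black and MPC EV in red. In every row both red symbols lie on one side of both black symbols, as the rule for these genes required.

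The 3 lists of contractile genes held 66 tested genes, of which 26 rose (39.4%), 1 fell and 39 did not pass. Their median change was 0.42. Without control 12 h replicate 1 or 2, 40 of the 66 rose, and with the 24 h libraries alone 38 did. With 1 library at 24 h left out the count was 6 (control replicate 1), 9 (control replicate 2), 8 (MPC EV replicate 1) or 13 (MPC EV replicate 2), and with either MPC EV library at 12 h left out it was 18. With no filter on low values 12 rose.

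Among the contractile lists, the Z disc and its stretch-responsive partners held the largest changes. Actn2, the alpha-actinin that cross-links actin at the Z disc (ENSMUSG00000052374), stood at 11.4 and 10.5 FPKM in the control libraries and at 80.3 and 69.3 FPKM with MPC EVs, so the groups lay far apart. The change was 2.71 ± 0.12 (SE, n = 2 against 2, adjusted p = 0.00195). Lmcd1, a LIM-domain cofactor linked to calcineurin signalling in muscle (ENSMUSG00000057604), had 2.08 and 3.18 FPKM in control and 24.0 and 18.6 FPKM with MPC EVs (2.81 ± 0.20, adjusted p = 0.00271). Ankrd2, an ankyrin repeat protein of the stretch response (ENSMUSG00000025172), had 7.98 and 6.66 FPKM in control and 39.5 and 32.1 FPKM with MPC EVs (2.21 ± 0.13, adjusted p = 0.00201). In each of these 3 genes the groups were far apart. Tcap, which encodes the cap that joins titin to the Z disc, rose from 4.07 and 4.65 FPKM to 15.2 and 13.3 FPKM (1.60 ± 0.11). In all, 11 of 26 tested members of this list rose and 1 fell, with a median change of 0.19. The other risen members were Ankrd23 (1.30), Csrp3 (1.07), Ldb3 (1.02), Fhl3 (1.02), Fhl1 (0.95), Myoz2 (0.91) and Smpx (0.84). These are LIM, PDZ or small adaptor proteins of the Z disc and its surroundings. Csrp1, the smooth muscle relative of Csrp3, fell from 55.1 and 54.9 FPKM to 37.3 and 37.6 FPKM, by 0.55. Leaving out control 24 h replicate 1 ended the calls of all but Actn2, Lmcd1, Ankrd2 and Tcap, with a highest adjusted p of 0.27 (Myoz2).

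The start-site windows of 4 of the contractile genes that rose most are shown with their E-boxes marked. Each runs from 250 bases before to 50 bases after the gene's first listed start, 5′ to 3′ on the gene's strand, and comes from RefSeq (GRCm38.p6). Capitals mark E-boxes, CANNTG, a core whose forms include those that myogenic factors of the MyoD family bind. The windows lie at chr13:12340683-12340982 on the minus strand for Actn2 and on the plus strand at chr6:112273508-112273807 for Lmcd1, chr19:42035777-42036076 for Ankrd2 and chr11:67078050-67078349 for Myh3.
Actn2: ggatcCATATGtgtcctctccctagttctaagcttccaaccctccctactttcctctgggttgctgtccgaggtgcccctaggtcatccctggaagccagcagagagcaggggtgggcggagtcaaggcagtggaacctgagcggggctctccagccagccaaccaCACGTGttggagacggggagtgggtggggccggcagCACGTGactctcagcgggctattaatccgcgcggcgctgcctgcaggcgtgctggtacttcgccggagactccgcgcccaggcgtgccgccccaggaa
Lmcd1: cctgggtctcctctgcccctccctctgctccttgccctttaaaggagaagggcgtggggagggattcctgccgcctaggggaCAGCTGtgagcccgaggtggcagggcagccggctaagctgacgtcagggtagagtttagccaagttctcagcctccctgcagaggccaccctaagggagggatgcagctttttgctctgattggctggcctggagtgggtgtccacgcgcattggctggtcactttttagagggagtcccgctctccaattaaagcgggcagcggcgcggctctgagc
Ankrd2: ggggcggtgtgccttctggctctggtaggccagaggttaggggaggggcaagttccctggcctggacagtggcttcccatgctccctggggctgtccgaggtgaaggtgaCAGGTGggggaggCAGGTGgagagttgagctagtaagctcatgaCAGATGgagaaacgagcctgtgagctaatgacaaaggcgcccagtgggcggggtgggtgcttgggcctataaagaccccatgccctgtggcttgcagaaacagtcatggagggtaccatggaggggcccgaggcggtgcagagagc
Myh3: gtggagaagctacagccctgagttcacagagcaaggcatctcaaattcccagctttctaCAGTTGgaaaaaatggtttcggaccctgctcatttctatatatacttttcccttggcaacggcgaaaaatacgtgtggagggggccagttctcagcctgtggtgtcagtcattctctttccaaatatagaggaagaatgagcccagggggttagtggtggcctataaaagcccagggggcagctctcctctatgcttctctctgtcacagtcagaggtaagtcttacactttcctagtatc
Actn2 and Ankrd2 held 3 E-boxes each, and Lmcd1 and Myh3 held 1 each. Of the 4 windows only that of Lmcd1 held the form CAGCTG, which every count of CANNTG includes. The window of Lmcd1 also held a CArG box, the motif of serum response factor. A window was found for 24 of the 26 contractile genes that rose and for 31 of the 39 that were not called. CANNTG was present on either strand in 79.2% of the former and 80.6% of the latter, against 61.6% of 8428 tested genes and 72.1% of all 27025 windows of this length in the table. CAGCTG was present in 37.5% and 35.5%, against 14.5% and 16.1%. The letters TGANTCA, which AP-1 factors bind, were in 5 of the 24 windows (20.8%) and in 2 of the 31 (6.45%), against 4.37% of the tested genes. A MEF2 motif was found in 20.8% and 16.1% and in 1.33% of tested genes. Each motif was counted separately, also where it overlaps another. The shares describe letters in a short window, with no test and no measure of binding.

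In the thick filament list 9 of 20 tested genes rose and none fell, and all 20 had a change above 0, with a median of 0.50. Embryonic Myh3 rose from 162 and 183 FPKM to 686 and 589 FPKM (1.88 ± 0.11, adjusted p = 0.00201). The perinatal myosin Myh8 went from 27.5 and 31.7 FPKM to 143 and 104 FPKM (2.03 ± 0.16), and the slow myosin Myh7 from 9.74 and 10.0 FPKM to 43.1 and 36.1 FPKM (1.95 ± 0.12). The adult fast isoform Myh1 rose by less, from 22.5 and 27.7 FPKM to 59.4 and 47.1 FPKM (1.07 ± 0.15). MPC EV replicate 1 was the higher of its pair for each of these 4 myosins. Myh3, Myh1 and Myh8 lie in 1 cluster on chromosome 11, and their sequences are close enough that fragments may have been shared between them. The light chain Myl6b, the myosin-binding proteins Mybph and Mybpc1, the kinase Mylk4 and the myosin chaperone Unc45b rose by 0.99, 0.97, 1.00, 0.62 and 0.66. Myh8 and the last 5 lost the call without control 24 h replicate 1 (highest adjusted p = 0.277, Mylk4), as did Myh1.

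The thin filament list had 6 of 20 tested genes higher and none lower, and its median was 0.43. Cardiac actin Actc1, the form that precedes skeletal actin in developing muscle, went from 741 and 821 FPKM to 1823 and 1598 FPKM (1.13 ± 0.12, adjusted p = 0.00908). Skeletal actin Acta1 stood at 5127 and 5445 FPKM in control and at 7669 and 6804 FPKM with MPC EVs, without overlap, and did not pass (0.45 ± 0.11, adjusted p = 0.102). Troponin I of slow muscle, Tnni1, rose by 0.55 and that of fast muscle, Tnni2, by 0.71. Lmod2, which nucleates actin, and Klhl40 and Klhl41, kelch proteins that stabilise thin filament proteins, rose by 0.43, 0.64 and 0.70. None of the 6 passed without control 24 h replicate 1 or 2 or without MPC EV replicate 1 (highest adjusted p = 0.289, Tnni2). Without control 12 h replicate 1 or 2, 14 of the 20 rose, and with no filter on low values 1 did. The intermediate filament gene Des, which links Z discs, was at 864 and 886 FPKM in control and 911 and 827 FPKM with MPC EVs (-0.01 ± 0.08, adjusted p = 0.98). Its groups overlapped.

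Genes that couple excitation to contraction had 6 of 19 tested members higher and none lower, with a median of 0.27. Hrc, the histidine-rich calcium-binding protein of the sarcoplasmic reticulum, rose from 21.9 and 24.4 FPKM to 69.3 and 59.7 FPKM (1.46 ± 0.12, adjusted p = 0.00317). Scn4a, the sodium channel of adult muscle, rose by 0.77 from under 1 FPKM. Sarcalumenin (Srl) and calsequestrin 2 (Casq2), which buffer calcium in the reticulum, rose by 0.89 and 0.62, and the calcium channel subunit Cacng1 by 0.36. Cacna1s, the pore of the voltage sensor, was at 38.2 and 41.3 FPKM in control and 67.4 and 59.8 FPKM with MPC EVs and missed the threshold (0.67 ± 0.13, adjusted p = 0.0543). Dhrs7c, a dehydrogenase of the same membrane that is outside the list, rose by 1.92 (call lost without control 24 h replicate 1, highest adjusted p = 0.109). No member passed without control 24 h replicate 1, where Hrc had an adjusted p of 0.05 and Cacng1 one of 0.334 at most over the fits. Without control replicate 2, MPC EV replicate 1 or MPC EV replicate 2, 1 member passed, and without either MPC EV library at 12 h, 3 did.

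Of 27 tested genes of the muscle membrane and the dystrophin complex, 6 rose and none fell (median 0.18). Itgb1bp2, or melusin, a muscle protein that binds the integrin beta-1 tail, rose from 7.18 and 7.99 FPKM to 30.3 and 22.6 FPKM (1.72 ± 0.15, adjusted p = 0.0037). Caveolin 3 (Cav3), which shapes the caveolae of muscle, rose from 21.7 and 17.9 FPKM to 48.0 and 40.1 FPKM (1.13 ± 0.12). Its partner Cavin4, the syntrophin Sntb1 and the membrane repair proteins Trim72 and Anxa5 rose by 0.44 to 0.47. None of the 6 passed without control 24 h replicate 1 (highest adjusted p over the fits 0.327, Trim72). Of 14 genes of the neuromuscular junction none passed. The nearest were the neuregulin receptor Erbb3 (0.56, adjusted p = 0.0524) and the ETS factor Etv5 (0.57, adjusted p = 0.0824).

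Of the central myogenic factors none of Myog, Myod1, Myf5 and Pax7 passed. Myog, the factor that drives terminal differentiation, had 1913 and 1886 FPKM in control and 1851 and 1963 FPKM with MPC EVs (0.01 ± 0.09, adjusted p = 0.99), with overlapping groups. Myod1 had 433 and 432 FPKM in control and 414 and 435 FPKM with MPC EVs (-0.03 ± 0.06), and Pax7, the factor of satellite cells, had 5.82 and 5.36 against 6.79 and 7.56 FPKM (0.33 ± 0.14, adjusted p = 0.376). Myf5, the factor of early myoblasts, was at 15.1 and 14.6 FPKM in control and at 9.09 and 8.19 FPKM with MPC EVs, with no overlap (-0.75 ± 0.16, adjusted p = 0.0742). The cell cycle inhibitor Cdkn1a was at 1118 and 1076 FPKM in control and 1061 and 1110 FPKM with MPC EVs (-0.02 ± 0.08). Of 28 genes in the list of myogenic regulation and fusion, 4 rose and 1 fell, with a median of -0.02. The 4 were the muscle and brain creatine kinases Ckm (1.00 ± 0.15) and Ckb (0.84), the MEF2 factor Mef2d (0.41) and M-cadherin, Cdh15 (0.35). The fall was that of Mymx, myomixer, a short membrane protein needed for fusion (ENSMUSG00000079471). It went from 78.0 and 73.4 FPKM to 32.0 and 37.0 FPKM (-1.12 ± 0.08, adjusted p = 0.00271). Slc29a1, a nucleoside transporter that lies 1364 bases from Mymx on chromosome 17, fell by 0.65 (highest adjusted p over the fits 0.248). The 4 rises ended without either MPC EV library at 12 h (highest adjusted p over the fits 0.346, Cdh15 and Mef2d), 1 of them passed without MPC EV 24 h replicate 2 and none without another library at 24 h, and without control 12 h replicate 1 or 2 there were 8.

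A second set of large rises came from neighbouring granule protease genes on chromosome 14. Gzmd and Gzme encode granzymes and Mcpt8 encodes a mast cell protease, serine proteases known from the granules of cytotoxic lymphocytes and of basophils. Gzmd (ENSMUSG00000059256, positions 56129556 to 56132608) had 0.105 and 0.103 FPKM in control and 4.51 and 4.21 FPKM with MPC EVs. The change was 3.01 ± 0.18 (adjusted p = 0.00201). Gzmd reached the mean of 1 FPKM for testing only through the MPC EV libraries. Gzme (ENSMUSG00000022156, positions 56117626 to 56120625) had 1.04 and 1.18 FPKM in control and 15.5 and 9.16 FPKM with MPC EVs (2.95 ± 0.23, adjusted p = 0.00306). Mcpt8 (ENSMUSG00000022157, positions 56082166 to 56085273) had 4.09 and 4.69 FPKM in control and 31.2 and 23.02 FPKM with MPC EVs (2.48 ± 0.15, adjusted p = 0.00201). In each of the 3 genes the lower MPC EV library was several times the higher control library. Ctsg, cathepsin G, lies between Mcpt8 and Gzme and was under the limit for testing, with 0.658 and 0.494 FPKM in control and 0.917 and 1.78 FPKM with MPC EVs. The other protease genes of the locus, among them Gzmb, Gzmc and Cma1, were listed at no more than 0.145 FPKM in any library at 24 h. Markers of granulocytes and mast cells summed to 0.60 and 0.37 FPKM in control and 0.30 and 0.14 FPKM with MPC EVs, and none reached the limit for testing. Of these 8 markers Elane, Mpo and Fcer1a were listed at 0 in all 4 libraries. Without control 24 h replicate 1 Gzme had an adjusted p of 0.05 and did not pass, while Gzmd and Mcpt8 did.

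The start-site windows of Gzmd (chr14:56132544-56132843) and Gzme (chr14:56120576-56120875), both on the minus strand, are shown because they are near copies. Most of each window lies before the start, and the transcripts were not compared. Fragments of one gene may have been counted for the other, which was not tested. Capitals mark the bases that differ in an alignment of the pair.
Gzmd: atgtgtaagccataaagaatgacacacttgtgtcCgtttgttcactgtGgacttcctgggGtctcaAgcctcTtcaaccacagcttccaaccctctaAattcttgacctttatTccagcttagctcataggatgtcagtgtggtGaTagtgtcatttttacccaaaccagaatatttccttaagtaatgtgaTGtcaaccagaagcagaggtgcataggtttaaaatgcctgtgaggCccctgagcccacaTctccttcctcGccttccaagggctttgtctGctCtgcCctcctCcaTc
Gzme: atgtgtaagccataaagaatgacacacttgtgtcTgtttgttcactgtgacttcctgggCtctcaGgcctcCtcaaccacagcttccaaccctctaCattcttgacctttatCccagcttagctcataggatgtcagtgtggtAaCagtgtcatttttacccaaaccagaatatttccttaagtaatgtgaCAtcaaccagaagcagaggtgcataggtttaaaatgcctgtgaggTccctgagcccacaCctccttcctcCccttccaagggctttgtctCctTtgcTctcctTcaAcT
They were identical at 281 of 301 aligned positions (93.4%), with 20 positions that differ. The window of Mcpt8 shared 49.2% with that of Gzmd and 47.5% with that of Gzme.

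The other largest rises came from several kinds of gene. Nptx1, a secreted pentraxin of synapses, went from 1.12 and 0.874 FPKM to 8.07 and 7.68 FPKM (2.49 ± 0.12, adjusted p = 0.00195). Tspan13, a tetraspanin, went from 1.60 and 1.56 FPKM to 11.7 and 9.64 FPKM (2.42 ± 0.15, adjusted p = 0.00201). Both were clear of the control libraries in each MPC EV library. Thbd, thrombomodulin, the thrombin receptor that activates protein C, rose from 4.89 and 5.12 FPKM to 22.1 and 18.8 FPKM (1.92 ± 0.16). Capn3, the calpain of muscle, Tm6sf1, a membrane protein of lysosomes, and Ablim3, an actin-binding LIM protein, rose by 1.64, 1.57 and 1.55. Calls of Thbd, Capn3 and Tm6sf1 ended without control 24 h replicate 1, with highest adjusted p values of 0.0511, 0.126 and 0.108.

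Of 22 tested genes that the ERK kinase pathway induces, many of which restrain it in turn, 8 rose, none fell and 14 did not pass, with a median of 0.51. Dusp6, a phosphatase that acts on ERK in the cytoplasm, had 5.92 and 5.99 FPKM in control and 16.8 and 15.6 FPKM with MPC EVs (1.37 ± 0.10, adjusted p = 0.00271). Its nuclear relative Dusp5 had 6.32 and 5.23 FPKM in control and 14.5 and 14.6 FPKM with MPC EVs (1.26 ± 0.11). Both genes were above control in both libraries with little spread. The other members that passed were Dusp2 (1.07), the inhibitor Spry4 (1.06), the ETS factor Etv4 (1.00), Phlda1 (0.87), cyclin D1, Ccnd1 (0.84), and the EGF receptor ligand Hbegf (0.80). Ccnd1 was at 51.3 and 45.8 FPKM in control and at 87.4 and 86.5 FPKM with MPC EVs. Of 21 immediate early genes 4 rose and 2 fell: the nuclear receptors Nr4a1 (1.45 ± 0.10) and Nr4a2 (0.81), Fosl1 (0.95) and Ier3 (0.88) were higher, and Junb (-0.70) and Klf4 (-0.51) were lower. Fos and Egr1, the earliest readouts of the pathway, did not pass (0.29 and -0.09, adjusted p = 0.673 and 0.926). With 1 library at 24 h left out, 1 or 2 of the 22 ERK genes passed, and 13 did without control 12 h replicate 1 or 2. Of the immediate early genes 1 or 2 were then higher (2 without control replicate 1) and none lower (highest adjusted p over the fits 0.334, Junb).

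Secreted signals and receptors changed in both directions. The cytokine Il11 rose from 0.481 and 0.313 FPKM to 2.32 and 1.45 FPKM (1.39 ± 0.26, adjusted p = 0.0465). It reached the mean of 1 FPKM for testing only through the MPC EV libraries, and it did not pass with a pseudocount of 0.1, with no filter on low values, with the replicate block, or without either MPC EV library at 12 h. The other 9 of 10 tested chemokines and cytokines did not pass. Sema7a, a membrane-bound semaphorin, rose from 6.90 and 5.91 FPKM to 15.6 and 16.2 FPKM (1.25 ± 0.11), and Gdnf, a trophic factor for motor neurons, fell from 5.42 and 5.70 FPKM to 2.81 and 3.42 FPKM, by 0.75. In the insulin-like growth factor system the adaptor Irs1 (0.88 ± 0.13) and the binding protein Igfbp3 (0.82 ± 0.08) rose, while Igfbp7 (-0.81 ± 0.09) and Igfbp2 (-0.54 ± 0.09) fell. Igf2 itself was at 1148 FPKM in both control libraries and at 1256 and 1235 FPKM with MPC EVs and did not pass (0.12 ± 0.09, adjusted p = 0.737). The Notch ligand Jag2 rose from 8.61 and 8.60 FPKM to 15.9 and 16.7 FPKM (0.88 ± 0.07), and the receptor Notch3 fell by 0.66. Lgr6, a receptor for R-spondins, fell from 2.38 and 2.26 FPKM to 0.514 and 0.683 FPKM, by 1.36. Odc1, which makes the polyamine putrescine, rose from 162 and 157 FPKM to 282 and 274 FPKM (0.80 ± 0.06, adjusted p = 0.00317). Jag2 lost the call without control 24 h replicate 1 alone (adjusted p = 0.05) and Sema7a without MPC EV 24 h replicate 1 alone (adjusted p = 0.0514). Odc1 lost it without either control library at 24 h or MPC EV 24 h replicate 1 (highest adjusted p 0.0562). The other called genes named among these signals and receptors lost it without each of the 4 libraries at 24 h, with a highest adjusted p over the fits of 0.0894 for Igfbp3, 0.109 for Igfbp7, 0.248 for Lgr6 and 0.303 for Il11.

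Most called genes of matrix breakdown and cell adhesion were higher. Among 27 proteases and inhibitors 7 rose and 3 fell. Mmp15, a membrane-bound metalloproteinase, rose from 10.0 and 10.7 FPKM to 24.2 and 21.9 FPKM (1.11 ± 0.09, adjusted p = 0.00306). The urokinase gene Plau and its receptor Plaur rose by 1.15 and 0.63 and the inhibitor Timp1 by 0.52, and Thbd, Gzme and Mcpt8 complete the 7. Mmp9, a secreted gelatinase (ENSMUSG00000017737), was the largest fall among the called genes, from 2.99 and 2.65 FPKM to 0.0772 and 0.193 FPKM (-2.39 ± 0.15, adjusted p = 0.00207). Timp3, an inhibitor bound to matrix, fell from 7.44 and 6.69 FPKM to 2.35 and 2.67 FPKM (-1.33 ± 0.22). Of 10 integrins the laminin-binding subunits Itga6 (0.65), Itgb4 (0.80) and Itga3 (0.38) rose and none fell. The tetraspanin Tspan9 (0.91) and the syndecan Sdc4 (0.80) were the only 2 of 27 vesicle genes to pass. Without control 24 h replicate 1 only Mcpt8 of the 7 proteases and none of the integrins or vesicle genes passed (highest adjusted p over the fits 0.297, Itga3), and without control replicate 2, MPC EV replicate 1 and MPC EV replicate 2 the proteases numbered 3, 4 and 5.

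Among matrix genes, 4 of 14 collagens and 3 of 35 matrix glycoproteins fell. Islr, an immunoglobulin-domain protein of mesenchymal cells (ENSMUSG00000037206), had 12.99 and 13.997 FPKM in control and 2.23 and 2.42 FPKM with MPC EVs (-2.31 ± 0.15, adjusted p = 0.00208). No collagen passed as a rise. Across the 14 collagens the median change was -0.08. Without overlap 6 were higher and 7 lower with MPC EVs, against 23.6% and 30.3% of all tested genes. Col12a1, a collagen that coats fibrils, fell from 3.89 and 3.72 FPKM to 0.963 and 1.00 FPKM (-1.54 ± 0.12), and Col6a1, Col1a2 and Col5a2 fell by 1.11, 0.88 and 0.40. Aebp1, a collagen-binding protein, fell from 20.2 FPKM in both control libraries to 9.34 and 10.7 FPKM (-0.98 ± 0.13). Against that direction, tenascin C, Tnc, rose from 28.8 and 27.2 FPKM to 66.3 and 62.8 FPKM (1.19 ± 0.15), and the laminin chain Lamb1 rose from 18.7 and 18.5 FPKM to 32.2 and 31.8 FPKM (0.76 ± 0.10). In the matrix glycoprotein list 2 of 35 rose. Creb3l1, a factor that drives collagen secretion, Prrx2, a homeobox gene of mesenchyme, and Rcn3, a protein of the endoplasmic reticulum that aids collagen production, fell by 0.99, 1.38 and 1.00. Except for Islr, none of these passed without control 24 h replicate 1 (highest adjusted p 0.266, Rcn3).

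Markers of other cell types are given beside the matrix genes. Of 12 fibroblast markers 4 reached the limit for testing and none passed. The list summed to 37.2 and 39.8 FPKM in control and 32.7 and 31.9 FPKM with MPC EVs, so that both MPC EV libraries were below both controls. Col3a1 was at 21.4 and 22.7 FPKM in control and 18.6 and 19.01 FPKM with MPC EVs (-0.22 ± 0.08, adjusted p = 0.257). Col1a1 was at 8.98 and 9.40 FPKM in control and 6.19 and 5.66 FPKM with MPC EVs (-0.59 ± 0.16, adjusted p = 0.138), and Ly6a at 2.44 and 3.01 against 2.18 and 1.92 FPKM. Neither overlapped between the groups. Fbln1, the remaining tested marker, went the other way without overlap, at 2.77 and 2.6 FPKM in control and 3.57 and 3.18 FPKM with MPC EVs. Pericyte and smooth muscle markers summed to 891 and 954 FPKM in control and to 876 and 772 FPKM with MPC EVs. Of their 5 tested members Abcc9 rose by 0.82 and Notch3 fell by 0.66. Cspg4 (2.28 and 2.16 against 1.34 and 1.52 FPKM) did not pass, and the pericyte markers Pdgfrb (1.20 and 1.32 against 0.666 FPKM in both) and Rgs5 (0.879 and 1.06 against 0.464 and 0.489 FPKM) were under the limit for testing. These 3 were lower in both MPC EV libraries than in both controls. Endothelial markers summed to at most 1.08 FPKM and macrophage markers to at most 4.04 FPKM in a library, and none of either reached the limit. Lum, Dcn, Dpt, Thy1, Pi16 and Tcf21, which define fibroblasts, were at no more than 0.273 FPKM in any of the 4 libraries. Pdgfra, a further marker, was at 0.865 and 0.777 FPKM in control and 1.23 and 0.872 FPKM with MPC EVs and was not lower there. Markers of satellite cells and progenitors summed to 114.4 and 106.9 FPKM in control and 139.9 and 134.7 FPKM with MPC EVs. Of their 10 tested members Sdc4 (0.80) and Cd34 (0.68) rose and none fell, and both lost the call without each of the 4 libraries at 24 h (highest adjusted p 0.227, Cd34). Without overlap, 5 of the 10 were higher and 3 lower, against 23.6% and 30.3% of all tested genes. The 3 were Myf5, Cxcr4 (4.08 and 4.45 against 2.44 and 2.9 FPKM) and Sdc3 (15.3 and 14.9 against 13.8 and 13.3 FPKM). Sdc4, at 34.7 and 29.6 FPKM in control and 57.8 and 54.8 FPKM with MPC EVs, made up much of the rise in the sum. The part of these fibroblast, pericyte and progenitor markers in the falls of matrix genes was not tested.

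Within TGF-beta and BMP signalling 1 of 28 tested genes rose and 3 fell. The ligand Tgfb3 rose from 27.1 and 27.8 FPKM to 56.2 and 53.7 FPKM (0.99 ± 0.07, adjusted p = 0.00306). Ltbp2, a latent TGF-beta binding protein of elastic fibres, fell from 3.97 and 4.14 FPKM to 0.995 and 0.657 FPKM (-1.79 ± 0.17). Smad6, an inhibitor of BMP signals that is itself induced by them, fell by 1.18, and the follistatin-like gene Fstl1 fell from 30.4 and 29.8 FPKM to 16.2 and 16.3 FPKM, by 0.87. Connective tissue growth factor, Ccn2, was the only 1 of 22 YAP and SRF target genes to pass, at 16.4 and 15.6 FPKM in control and 9.59 and 10.1 FPKM with MPC EVs (-0.67 ± 0.11). All 5 lost the call without control 24 h replicate 1, where Tgfb3 had an adjusted p of 0.05 (highest over the fits 0.248, Ccn2).

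In the lists of NF-kB and interferon genes, those that passed were lower. Of 10 tested chemokines and cytokines 8 had a change above 0, with a median of 0.17, and only Il11 passed, as a rise. Of 18 NF-kB genes 3 fell and none rose: the inhibitor Nfkbia went from 10.6 and 9.45 FPKM to 6.10 and 6.49 FPKM (-0.63 ± 0.12, adjusted p = 0.0463), the inhibitor Nfkbie from 4.44 and 4.32 FPKM to 2.10 and 2.55 FPKM (-0.79 ± 0.12), and the subunit Nfkb2 from 43.5 and 42.6 FPKM to 29.1 and 28.7 FPKM (-0.57 ± 0.07). Nfkb2 overlaps Psd, which also fell (-0.62), and the libraries did not keep strand. Reads of the pair cannot be told apart where they overlap. In the interferon and MHC class I list 3 of 13 fell, with a median of -0.31: H2-K1 (-0.50), H2-D1 (-0.66), the classical class I chains, and Tapbp (-0.77), which loads peptides on them. Their shared light chain B2m was at 173 and 163 FPKM in control and 121 and 124 FPKM with MPC EVs (-0.45 ± 0.09, adjusted p = 0.0508). The interleukin 1 receptor Il1r1 fell from 6.44 and 6.37 FPKM to 2.14 and 2.77 FPKM (-1.23 ± 0.13, adjusted p = 0.00855). Tmem176a and Tmem176b, an overlapping pair of ion channel genes on chromosome 6, fell from 36.2 and 32.0 FPKM to 8.06 and 11.1 FPKM (-1.80 ± 0.15) and from 76.3 and 64.4 FPKM to 19.9 and 20.4 FPKM (-1.77 ± 0.10). Close class I genes may share fragments in the same way as the overlapping pairs. Apart from Tmem176b, the falls named here did not pass without control 24 h replicate 1 (highest adjusted p over the fits 0.322, Psd).

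Energy metabolism showed small rises in glycolysis. Of 23 glycolytic genes 4 rose and none fell, with a median of 0.23. Phosphofructokinase of muscle, Pfkm, went from 45.2 and 45.9 FPKM to 75.5 and 65.6 FPKM (0.62 ± 0.10, adjusted p = 0.0324), and Aldoa, the aldolase of muscle, from 1206 and 1228 FPKM to 1831 and 1655 FPKM (0.52 ± 0.09). Hexokinase 1 (Hk1) and lactate dehydrogenase A (Ldha) rose by 0.36 and 0.31. Pygm, the phosphorylase that releases glucose from muscle glycogen, rose by 0.60, as the only 1 of 14 glycogen genes to pass. Angptl4 (0.65) and Acsl1 (0.49) passed among 21 genes of fatty acid use. The small heat shock proteins Hspb7 (1.05 ± 0.10) and Hspb1 (0.49 ± 0.07), which bind sarcomere proteins, rose among 21 heat shock genes. None of the glycolytic genes passed without either MPC EV library at 12 h or without any 1 library at 24 h (highest adjusted p 0.287, Ldha), as was so for Pygm, Angptl4 and Acsl1, and 10 or 11 passed without control 12 h replicate 2 or 1. Both heat shock genes lost the call without either control library at 24 h (highest adjusted p 0.214, Hspb1).

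**Figure D3:**
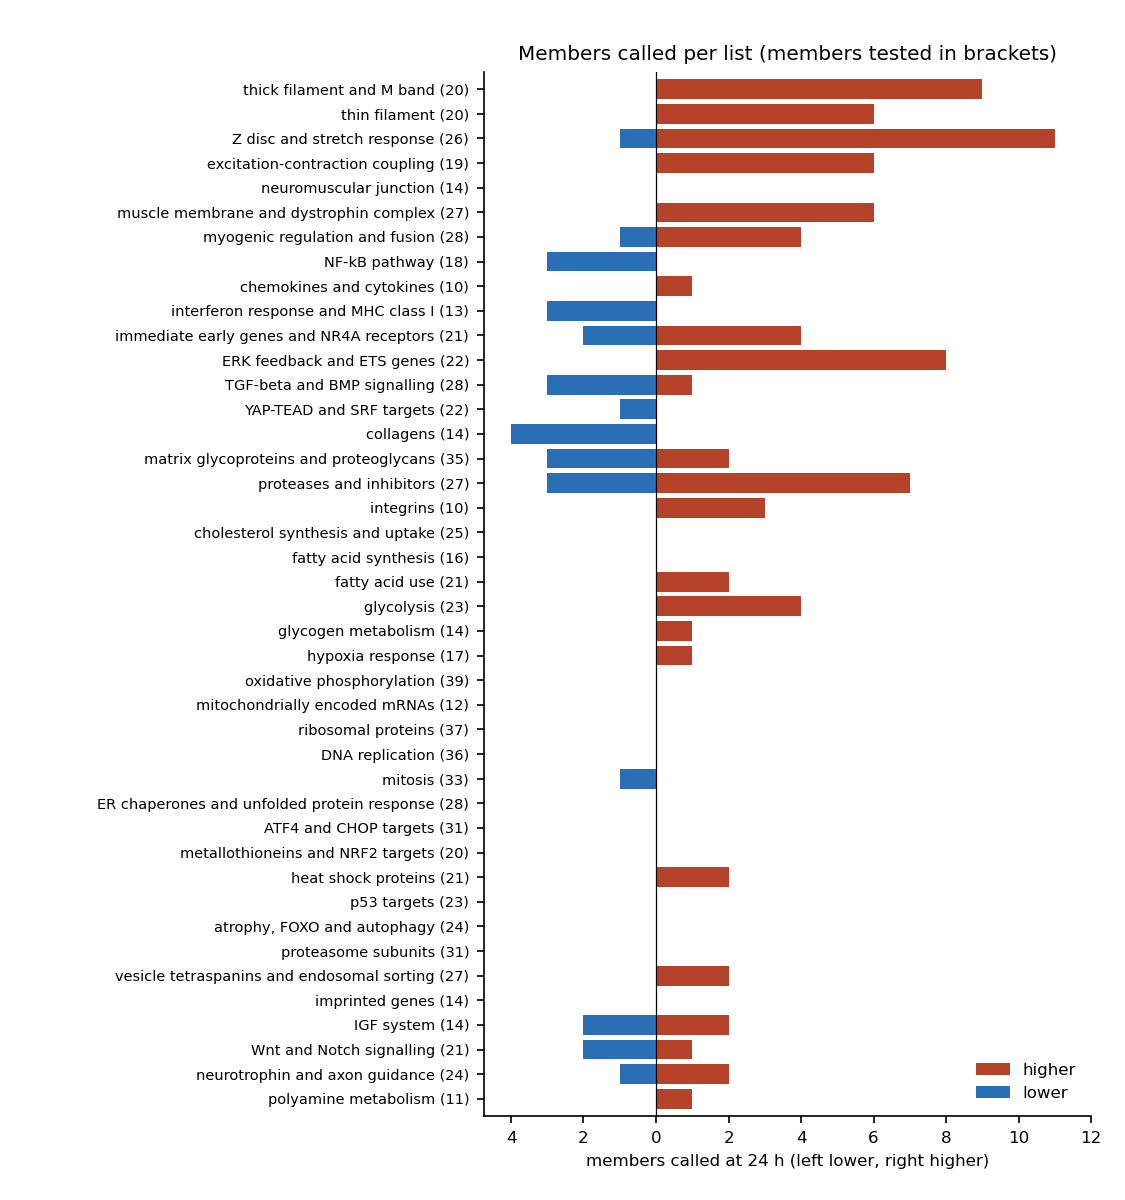
Bars give the number of members called higher (red, to the right) and lower (blue, to the left) at 24 h in each of 42 gene lists, with the number tested in brackets. The Z disc, thick filament and ERK lists have the longest bars to the right (11, 9 and 8 genes), and collagens the longest to the left (4 genes).

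In 14 of the 42 lists, with 350 tested members, no gene passed, and list medians lay between -0.13 and 0.15. These were the lists of the neuromuscular junction, cholesterol synthesis, fatty acid synthesis, oxidative phosphorylation, mitochondrially encoded mRNAs, ribosomal proteins, DNA replication, ER chaperones, ATF4 targets, NRF2 targets, p53 targets, atrophy and autophagy, proteasome subunits and imprinted genes. Members of some of these lists still leaned one way. Among 37 ribosomal protein genes 31 were lower without overlap, 0 were higher without overlap and 0 had a change above 0. Among 36 replication genes 20 were higher and 5 lower without overlap, and among 39 oxidative phosphorylation genes 18 and 1. For the whole set of 10939 genes the shares without overlap were 23.6% upward and 30.3% downward. No test was run on this leaning. Mcm4, a subunit of the replicative helicase, was nearest to the threshold among 36 replication genes (0.36, adjusted p = 0.0508), and the cyclin Ccnb2 was the only 1 of 33 mitosis genes to pass, with a fall of 0.69 that ended with any 1 library left out other than a control at 12 h (highest adjusted p over the fits 0.279). The imprinted RNA H19, the most abundant gene named here, was at 13647 and 13194 FPKM in control and 14869 and 13591 FPKM with MPC EVs, with overlapping groups (0.08 ± 0.14). At a true log2 change of 0.5 a simulation of this design recovered 22.4% of changed genes, at 1 it recovered 73.1% and at 2 it recovered 90.9%, so small changes in these lists would mostly not have been detected.

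The effect at 24 h was set beside that at 12 h, where 469 (4.29%) and 1546 (14.1%) of the same 10939 genes were higher and lower. Of the 285 genes that rose at 24 h, 184 were also called higher at 12 h (64.6% of the first and 39.2% of the second list), 98 were not called at 12 h and 3 were called lower there. Of the 105 that fell, 85 were also called lower at 12 h (81.0% and 5.50%) and 20 were not called. Both effects share 1 estimate of spread, but no library. Actn2 differed by 1.64 at 12 h and 2.71 at 24 h, and Gzmd by 1.73 and 3.01, whereas Mdfi, an inhibitor of myogenic factors, differed by -2.69 and -1.24 and Nfkbie by -2.33 and -0.79. The call of Mdfi at 24 h ended without each of the 4 libraries there (highest adjusted p 0.112). In the test of the difference itself, 0 of 10939 genes passed (0%), at a smallest adjusted p of 0.0746, and 2002 (18.3%) had an unadjusted p under 0.05. With no filter on low values 72 and 58 genes passed, and without control 12 h replicate 1 1950 and 1677 did. Without control 12 h replicate 2, which stands apart, 3 genes passed, all higher at 24 h: the neuropeptide gene Gal, Odc1 and 1700012B09Rik (adjusted p = 0.0257, 0.0257 and 0.0422). Gal was at 4.42 and 4.80 FPKM in control and at 14.5 and 10.5 FPKM with MPC EVs at 24 h (1.33 ± 0.16), a call that ended without either control or MPC EV replicate 1 at 24 h (highest adjusted p 0.113). At 12 h it was at 48.4 and 47.2 FPKM in control and 15.4 and 17.8 FPKM with MPC EVs, so the groups did not overlap at either time.

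**Figure D4:**
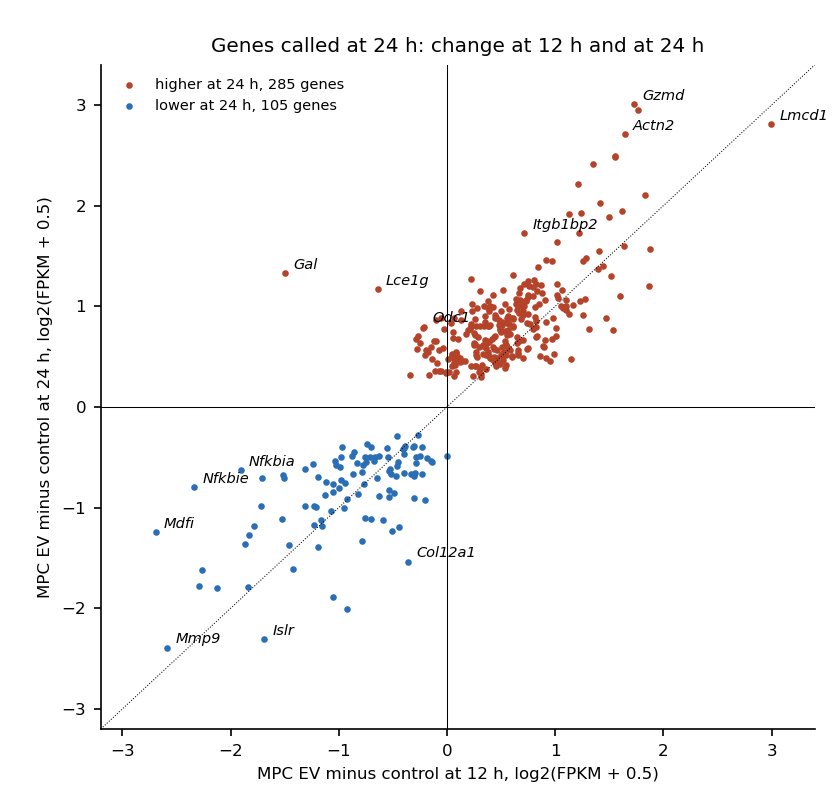
Each point is 1 of the 390 genes called at 24 h, with its change with MPC EVs at 12 h across and at 24 h upward, both on the log2(FPKM + 0.5) scale, and a dotted line where both are equal. Of the 285 higher genes 257 lie right of 0 and all 105 lower genes lie left of it, and Gal lies farthest into the upper left.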

How the data were processed

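Mouse myotube RNA was sequenced in 8 libraries, 2 in each of 4 groups, from paired ends of libraries that did not keep strand, per the labels' protocols. The authors deposited FPKM values for 35275 genes. HISAT2, mm10 and DESeq2 (its version written as 2) appear in the submitters' processing notes without a role. Which tool counted fragments, and on which annotation, is not given in the sources used here. The unit FPKM divides by each library's total, so a change in a few abundant transcripts shifts all other values. Only 17.7% to 19.7% of genes per library came out as whole fragments within a tolerance of 0.02, so no count test was run. Ensembl IDs were matched to GENCODE vM21 (GRCm38): 34490 had a symbol and 785 had none, as had 34 tested genes.

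Genes that averaged 1 FPKM or more in the 4 libraries at 24 h entered the test, done by limma 3.58.1 (R 4.3.3; lmFit, eBayes with a trend) on log2(FPKM + 0.5), two-sided, with Benjamini-Hochberg adjustment over all of them and a threshold of 0.05. All 8 libraries in 4 groups entered 1 fit with 4 residual degrees of freedom, because 2 against 2 leaves few; an exact permutation test of 2 against 2 cannot go below p = 0.333. Contrasts were the EV effect at each time and the difference of these effects. On simulated data with known changes, 7 of 10939 genes were false calls.

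Gene lists (42, with 9 marker lists) and genes to name were chosen with earlier results of these data known. The rule names the 20 largest rises and falls among called genes with separate groups, a symbol and a mean of at least 2 FPKM, in each list up to 5 members by adjusted p, the 8 genes whose difference between times had the lowest p, and 14 fixed genes; further called members were named after their values were seen, and a few genes that it picks are left out here. Alternatives were other pseudocounts, filters and scalings, no trend, a replicate block, each library left out and the 24 h libraries alone. Python 3.11.15, numpy 2.4.6, pandas 2.3.3 and matplotlib 3.10.9 made the tables and figures.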

Additional observations from a re-analysis of the deposited data

Results flagged for a closer look

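A change of the same sign at 12 h was seen in 257 of the 285 genes called higher at 24 h, and 3 were called lower at 12 h. Only the 116 called genes that the rule for named genes picked were searched further. In 6 of these both MPC EV libraries lay above both controls at 24 h and below both controls at 12 h. They were Gal (1.33 on the log2 scale at 24 h, with 48.4 and 47.2 FPKM in control and 15.4 and 17.8 FPKM with MPC EVs at 12 h) and, with the change at 24 h and then at 12 h, Odc1 (0.80 and -0.21), Cd34 (0.68 and -0.29), Cacng1 (0.36 and -0.11), Hk1 (0.36 and -0.06) and Mcrip2 (0.32 and -0.34). The difference between the effects did not pass in any of them (limma adjusted p = 0.0746, 0.0746, 0.119, 0.138, 0.142 and 0.102). Odc1 was at 210 and 227 FPKM in control and 182 and 195 FPKM with MPC EVs at 12 h, and at 162 and 157 against 282 and 274 FPKM at 24 h. Without control 12 h replicate 2 the differences of Gal and Odc1 passed (adjusted p = 0.0257 for both).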

How the results depend on the processing

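The numbers of genes higher and lower at 24 h, 285 and 105 with the settings used, stayed within 1.5 times under other pseudocounts, filters at 0.1 and 5 FPKM or over all 8 libraries, median-ratio scaling, quantile normalization and no trend. They were 118 and 59 with no filter, where the difference between the times had 72 and 58, and 489 and 269 with the 24 h libraries alone. Leaving out each library in turn gave 23 to 592 higher and 4 to 344 lower, and for the difference 0 to 1950 higher and 0 to 1677 lower. With the replicate number as a block within each time, 0 and 0 genes passed. Whether the numbers pair the libraries is not known: the labels name no shared culture. Deviations of same-numbered libraries correlated at -0.01 at 12 h and 0.23 at 24 h. The causes of these shifts were not tested. Of 2180 values of the 116 called genes under the alternatives none reversed, and 1574 kept the call. Outside median-ratio scaling and quantile normalization no reversal was possible, because the groups of every called gene were separate at 24 h. Depth limits the low genes most: Gzmd in control was at 0.1 FPKM.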

Other observations

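Of the called genes, 199 rises and 76 falls belonged to none of the lists. The following were named after their values were seen. Spp1, osteopontin, a secreted phosphoprotein that binds integrins and CD44, was the most abundant of these rises, at 461 and 427 FPKM in control and 1172 and 1253 FPKM with MPC EVs (1.45 ± 0.27, limma adjusted p = 0.0455). Its call ended with either MPC EV library at 12 h or any library at 24 h left out (highest adjusted p = 0.285). Nefm, a neurofilament subunit, rose from 0.317 and 0.431 FPKM to 3.05 and 3.48 FPKM (2.11 ± 0.15) and passed with each library left out in turn. Apln, the apelin peptide that muscle secretes, rose by 1.48, Npnt, an integrin ligand of basement membranes, by 1.06, and Errfi1, an inhibitor of the EGF receptor, by 1.11. Both chromatin proteins of the HMGA family rose, Hmga2 from 21.3 and 20.1 FPKM to 38.9 and 42.1 FPKM (0.95) and Hmga1 from 188 and 173 FPKM to 268 and 266 FPKM (0.57). Atp1b1, a beta subunit of the sodium pump (0.66), myoglobin, Mb (0.57), Stac2, a partner of the calcium channel of muscle (1.00), and Fndc5, the precursor of irisin (0.95), were higher too. Without control 24 h replicate 1 none of these but Nefm passed.

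Among falls outside the lists, Lgals3, galectin 3, was the most abundant, at 504 and 519 FPKM in control and 334 and 335 FPKM with MPC EVs (-0.61 ± 0.06, adjusted p = 0.00446). Ass1, argininosuccinate synthase of arginine synthesis, fell from 152 and 147 FPKM to 88.4 and 95.4 FPKM, by 0.70, and Ifitm3, an antiviral membrane protein, by 0.49. The growth factors Pdgfb and Pdgfc fell by 0.77 and 0.84. Low genes of stromal cells had large falls: Ccn5 from 2.57 and 2.51 FPKM to 0.249 and 0.259 FPKM (-2.01 ± 0.16), Cyp1b1 by 1.89 and Smoc2 by 1.62. None of these falls passed without control 24 h replicate 1 (highest adjusted p over the fits 0.3, Ifitm3).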
